A study of Mus musculus with 16 samples.

Results

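The 10 long noncoding RNAs Meg3, Malat1, Snhg11, Rian, Mirg, Miat, Neat1, Peg13, Kcnq1ot1 and Rmst were followed through single nuclei of the mouse medial prefrontal cortex. They were taken by name, and all 10 were found among the 19999 genes of the count table. Nuclei came from the prelimbic and infralimbic cortex of 16 male mice of 22 weeks, with 4 mice in each of 4 groups. The 3xTg-AD line carries human APP with the Swedish mutation and human tau P301L as transgenes and a PS1 M146V knock-in on a B6;129 background, and WT mice were of the B6;129 strain. Alcohol-exposed mice of either genotype inhaled ethanol vapor in repeated cycles after injections of ethanol with pyrazole, an inhibitor of alcohol dehydrogenase. Control mice breathed air and received pyrazole in saline, so every group was given pyrazole. Mice were tested in the Morris water maze after the last vapor exposure, and the cortex was taken days after that test. WT controls were mice 26, 27, 28 and 36, alcohol-exposed WT mice were 6, 7, 17 and 18, 3xTg-AD controls were 12, 13, 14 and 21, and alcohol-exposed 3xTg-AD mice were 4, 31, 33 and 34.

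These RNAs are transcribed by RNA polymerase II and, unlike messenger RNAs, are mostly kept in the nucleus, which makes them prominent in nuclear libraries. Malat1 sits in nuclear speckles, bodies rich in splicing factors, and Neat1 is the scaffold of paraspeckles. Meg3, Rian and Mirg are expressed from the maternal chromosome of the imprinted Dlk1-Dio3 domain, whereas Peg13 and Kcnq1ot1 come from the paternal chromosome of 2 other imprinted domains. Miat, also called Gomafu, is a neuronal RNA, Snhg11 is a host gene of small nucleolar RNAs, and Rmst is known from neural progenitors and the developing midbrain.

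The libraries held 114512 nuclei and 216742276 unique molecular identifiers (UMIs), with 4955 to 9096 nuclei and 9622031 to 17544364 UMIs per mouse. The median nucleus had 1543 UMIs. In all, 1694 nuclear barcodes occurred in more than 1 library, and they covered 3400 nuclei, or 2.97% of all. WT controls 26 and 27 and 3xTg-AD control 12 stood apart from the rest in Gm42418, an RNA that overlaps ribosomal RNA sequence, at 29047, 19430 and 17914 counts per 1000000 UMIs (CPM), while no other mouse was above 4249 CPM. Nuclei were grouped by marker genes into 9 broad classes and, within neurons, 12 types with enough nuclei for tests, and 33.3% of the nuclei remained unnamed. Of the 6 glutamatergic markers, 2 were highest in the glutamatergic class and the other 4 were higher in another class, and whether free RNA of glutamatergic neurons contributed to other classes was not tested. Markers of the GABAergic, oligodendrocyte, OPC, microglial, endothelial and VLMC classes were each highest in their own class, as were 7 of 9 astrocyte and 7 of 8 pericyte markers. In the VLMC class, naming single nuclei by markers gave 32 VLMCs, 52 astrocytes and 50 glutamatergic nuclei and left 531 unnamed. In the microglial class the same naming gave 894 microglia and 276 glutamatergic nuclei and left 2185 unnamed. In the pericyte class it gave 80 pericytes and 86 glutamatergic nuclei and left 310 unnamed.

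The 10 RNAs made up 21.4% of all UMIs, and between 16.5% and 27.5% in single mice. By UMIs over all nuclei, Malat1, Meg3 and Snhg11 were the genes ranked 1, 2 and 3 of 19999, so the term abundant fits them well. Malat1 alone took 18.5% of the UMIs, Meg3 took 1.68% and Snhg11 0.996%. Kcnq1ot1 and Rian each accounted for a similar share, 0.106% (rank 28) and 0.102% (rank 31). Miat reached 0.0475% and Mirg 0.0189%, while Rmst at 0.00836%, Peg13 at 0.00625% and Neat1 at 0.0057% were sparse, at ranks 2356, 3292 and 3655. A UMI of Malat1 was found in 99.5% of the nuclei, of Meg3 in 77.4%, and of Neat1 in 5.99%. Each library was sampled from the 3′ end of polyadenylated RNA or from runs of A inside a transcript, so these shares do not compare the number of molecules of different RNAs.

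**Figure D1:**
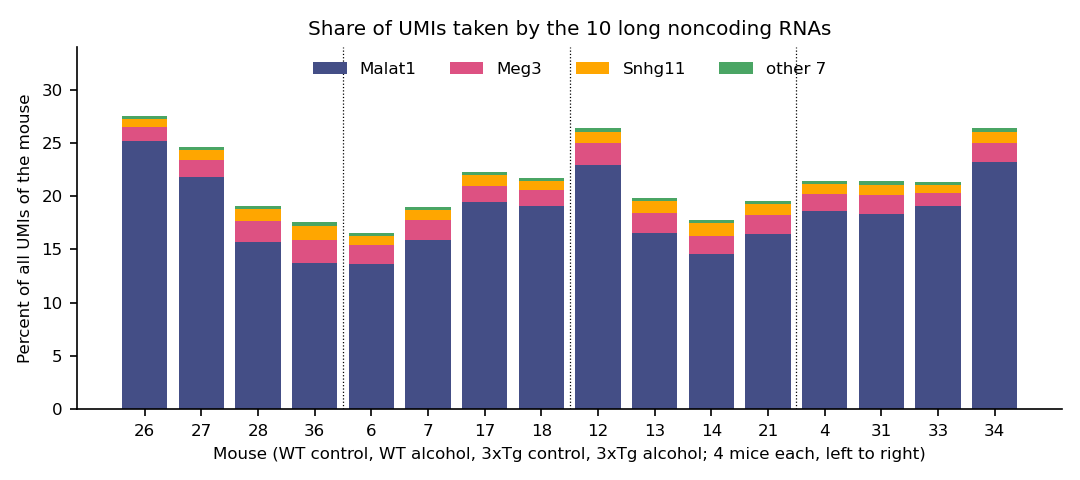
Percent of all UMIs of a mouse taken by the 10 long noncoding RNAs, for the mice of the 4 groups. Malat1 lay between 13.6% and 25.2% of the UMIs, and Neat1, Peg13 and Rmst lay near 0.01% or below.

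The loci set some limits on what was counted. In the GENCODE annotation of GRCm38, Malat1 lies at chr19:5795690-5802672 on the minus strand as a single exon, and Neat1 lies nearby at chr19:5824708-5845478 on the same strand. Meg3 (chr12:109541001-109571726), Rian (chr12:109603940-109661716) and Mirg (chr12:109729764-109749460) follow each other on the plus strand. Peg13 (chr15:72805600-72810324) lies within an intron of Trappc9 on the same strand, so its reads cannot be told apart from unspliced Trappc9. Kcnq1ot1 (chr7:143203458-143296549) runs antisense through Kcnq1, and Miat (chr5:112213228-112229395) overlaps Gm26953 on the other strand. Whether reads were counted by strand was not given in the sources used here. Snhg11 lies at chr2:158375638-158386145 on the plus strand, where the annotation calls it protein coding, and Rmst at chr10:92071037-92165170 on the minus strand.

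Runs of A differed between these RNAs. Malat1 has an A-rich tract near its 3′ end, which is processed into a triple helix and not polyadenylated, and the longest run of A in the genome sequence lay 298 bases from the annotated end of the transcript. It is shown because it is the place in this most frequent RNA where an oligo-dT primer could bind. The 52 bases at chr19:5795968-5796019 (GRCm38, minus strand, 5′ to 3′) are given with the 12 A in capitals.
Malat1 A run: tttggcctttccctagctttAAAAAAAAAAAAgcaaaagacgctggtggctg
Kcnq1ot1 held 10 runs of at least 10 A with a longest run of 41, Meg3 held 6 and Rian 1. In Snhg11, Mirg, Miat, Neat1, Peg13 and Rmst no run reached 10. Only the longest annotated transcript of each gene was searched, so introns were left out. For Kcnq1ot1 that was 93092 bases in 1 exon. For Rmst it was 2891 bases of a locus that spans 94134, so these counts do not compare whole loci.

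Of the 10 loci, 4 also host microRNAs, which the assay did not measure because mature microRNAs are too short and carry no poly(A) tail. By the RefSeq entries, Mirg hosts 26 mature forms, Rian 6, Rmst 4 and Meg3 3. The 39 mature forms had 38 different seeds (bases 2 to 8). The sequences hosted by Rmst are shown because Rmst gave 4 of the 6 calls between groups described below, and the 2 from Mirg because they are the only pair that shared a seed. Capitals mark the seed.
miR-135a-5p in Rmst: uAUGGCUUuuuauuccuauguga
miR-135a-2-3p in Rmst: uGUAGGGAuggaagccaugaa
miR-1251-5p in Rmst: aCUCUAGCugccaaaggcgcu
miR-1251-3p in Rmst: cGCUUUGCucagccaguguag
miR-453 in Mirg: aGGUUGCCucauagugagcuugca
miR-496a-5p in Mirg: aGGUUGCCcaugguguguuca
The 4 microRNAs of Rmst have 4 different seeds, so the locus does not hold a family with 1 common set of seed matches.

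Across the cell classes, Meg3, Snhg11, Rian, Mirg, Miat and Kcnq1ot1 were highest in neurons, Neat1 in oligodendrocytes, Rmst in astrocytes and L5 IT neurons, and Peg13 in pericytes, while Malat1 was high in every class. Levels are CPM, the UMIs of the RNA relative to all UMIs of a class in a mouse, averaged over mice, and they are described without a test because all classes of a mouse share a library. Meg3 was highest in GABAergic nuclei at 27330 ± 5313 CPM (SD, n = 16) and reached 21699 ± 2491 CPM (SD, n = 16) in glutamatergic nuclei. The levels of both classes overlapped within 1 SD. In the 7 glial and vascular classes Meg3 lay between 2731 and 5418 CPM. Snhg11 followed the same order, with 16865 ± 2972 CPM (SD, n = 16) in GABAergic and 12842 ± 1762 CPM in glutamatergic nuclei and 1643 to 3241 CPM elsewhere. Rian reached 1580 ± 309.9 CPM (SD, n = 16) in GABAergic and 1276 ± 161 CPM in glutamatergic nuclei. Mirg was the only RNA of the imprinted Dlk1-Dio3 domain whose GABAergic level, 358 ± 83.7 CPM (SD, n = 16), stood above the glutamatergic level of 233 ± 34.8 CPM by more than both SDs.

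Among neuron types, Meg3 was highest in L5 ET neurons, which project out of the cortex, at 34309 ± 3271 CPM (SD, n = 16). Sst and Pvalb interneurons followed at 30440 ± 4225 CPM and 30159 ± 3791 CPM, and their SD ranges overlapped with that of L5 ET neurons. Rian was also highest in L5 ET neurons, at 1929 ± 224 CPM (SD, n = 16), whereas Snhg11 and Mirg were highest in Pvalb interneurons, at 18830 ± 2219 CPM and 415 ± 77.6 CPM. Over the 9 broad classes and 12 neuron types, the gene most like Meg3 was Rian, with a Pearson correlation of log2(CPM + 1) of 0.994, followed by Mirg at 0.992 and Ube3a at 0.991. Ube3a encodes a ubiquitin ligase that is itself imprinted in neurons. For Snhg11 the closest genes were Meg3 at 0.991, Ube3a at 0.989 and Mirg at 0.987. The 21 points of these correlations share libraries and depth and are given without a test.

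Miat and Kcnq1ot1 favored glutamatergic nuclei. Miat reached 686 ± 109 CPM (SD, n = 16) there, against 265 ± 64.3 CPM in GABAergic nuclei, a gap larger than both SDs. It was highest in L5 ET neurons at 917 ± 122 CPM (SD, n = 16) and L5 IT neurons at 808 ± 151 CPM. Within GABAergic nuclei, the levels of Sncg, Lamp5, Sst and Vip interneurons, from 458 ± 130 to 309 ± 80.6 CPM, overlapped between neighbors, and Pvalb interneurons stood below them at 100 ± 30.7 CPM (SD, n = 16). Pvalb interneurons thus had high Meg3, Rian and Mirg together with a Miat level close to that of astrocytes, 104 ± 31.6 CPM. Radil, Rgs11 and Celf5 were most like Miat, at correlations of 0.936, 0.922 and 0.918. Kcnq1ot1 lay at 1393 ± 264 CPM (SD, n = 16) in glutamatergic and 1156 ± 203 CPM in GABAergic nuclei, which overlapped, and was highest in L5 IT neurons at 1655 ± 324 CPM. It was also found at 877 ± 183 CPM in OPCs, the precursors of oligodendrocytes.

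**Figure D2:**
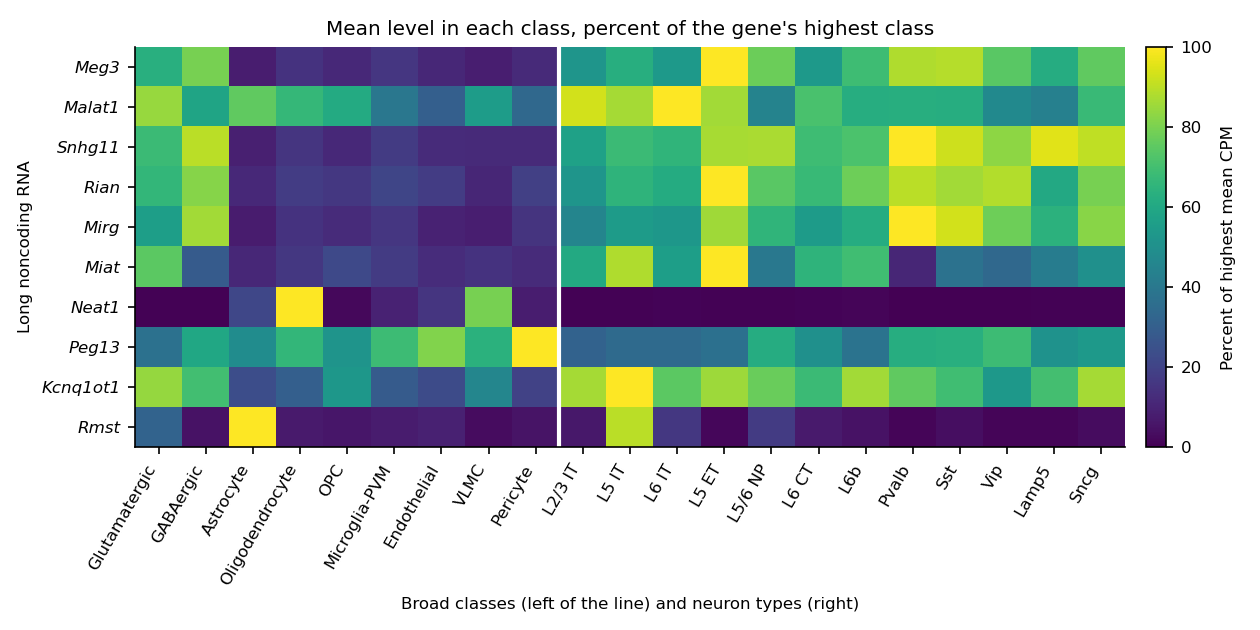
Mean level of each RNA in the 9 broad classes and the neuron types. Neat1 was highest in oligodendrocytes and VLMCs, Rmst in astrocytes and L5 IT neurons, and the RNAs of the Dlk1-Dio3 domain in neurons.

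The low levels of Meg3, Snhg11, Rian, Mirg, Miat and Kcnq1ot1 in glia were compared with the 6 glutamatergic markers in the same classes. In the 7 glial and vascular classes, Meg3 stood at 12.6% to 25% of its glutamatergic level, Snhg11 at 12.8% to 25.2%, Rian at 16.5% to 31.4%, Mirg at 13.5% to 28.5% and Miat at 15.1% to 29.6%. The lowest of the 6 markers in each of these classes stood at 49.5% to 83.0%. As a percent of the glutamatergic level, these 5 RNAs were thus below every marker in the same sums, and expression in glia was not inferred. The markers do not measure leftover neuronal RNA, since only 2 of the 6 were highest in the glutamatergic class. The part of such RNA was not tested. Kcnq1ot1 stood at 63.0% in OPCs, where the lowest marker was at 53.6%, and at 23.3% to 54.5% in the other 6, with the highest of these in VLMCs, where the lowest marker was at 54.3%.

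Malat1 was highest in glutamatergic nuclei, at 233220 ± 42077 CPM (SD, n = 16), and astrocytes at 208907 ± 36325 CPM lay within that spread. Endothelial cells had the lowest level of the broad classes, at 83617 ± 19560 CPM (SD, n = 16). Even there Malat1 was found in every nucleus. Among neurons, L6 IT cells were highest at 276195 ± 47389 CPM and Lamp5 interneurons lowest at 120115 ± 19792 CPM (SD, n = 16). In the unnamed nuclei, which had a median of 863 UMIs and 2.27% mitochondrial UMIs, Malat1 was at 60606 ± 20554 CPM, lower than in every broad class and tested neuron type.

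Among the broad classes, Neat1 stood out in oligodendrocytes and VLMCs. It reached 1484 ± 496 CPM (SD, n = 16) in oligodendrocytes and 1177 ± 379 CPM (SD, n = 15) in VLMCs, fibroblast-like cells of the meninges and vessels, and these levels overlapped. Astrocytes followed at 315 ± 74.3 CPM, endothelial cells at 229 ± 108 CPM and microglia at 143 ± 59.4 CPM (SD, n = 16). Glutamatergic and GABAergic nuclei were at 9.99 ± 3.2 CPM and 5.86 ± 2.46 CPM. When each nucleus was thinned to 500 UMIs, 48.7% ± 10.2 (SD, n = 16) of the oligodendrocytes had a Neat1 UMI, against 65.9% before thinning, and 0.289% ± 0.128 of the GABAergic nuclei, against 1.02% before. Median depths were 888.5 UMIs in oligodendrocytes and 1697 UMIs in GABAergic nuclei, so the shallower class had the larger share. Oligodendrocytes were 2.55% of the nuclei and held 41.6% of all Neat1 UMIs.

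Rmst marked astrocytes and L5 IT neurons. Astrocytes were at 295 ± 71.2 CPM (SD, n = 16), above the 93.9 ± 17.7 CPM of all glutamatergic nuclei by more than both SDs. L5 IT neurons, which project within the cortex, were at 265 ± 50.3 CPM (SD, n = 16) and no other tested neuron type was above 51.7 CPM, with L5 ET neurons at 5.2 and Pvalb interneurons at 3.6 CPM. The 2 clusters of L5 IT neurons differed, with 447 CPM in one of 3731 nuclei and 124 CPM in the other of 4238. An unnamed glutamatergic cluster of 5480 nuclei held 252 CPM. After thinning, 14.1% ± 3.25 of the astrocytes and 12.3% ± 1.98 of the L5 IT neurons had a Rmst UMI, against 0.189% of the Lamp5 interneurons (n = 16). The unthinned shares were 32.3%, 43.0% and 0.73%, at median depths of 1211, 2786 and 1669 UMIs. Rorb, a transcription factor gene that is itself among the markers used to name L5 IT neurons, was most like Rmst at a correlation of 0.772, followed by Ttyh1 and Grm3, both of which are known from astrocytes.

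Peg13 levels ran from 43.4 ± 5.9 CPM (SD, n = 16) in glutamatergic nuclei to 117 ± 56.9 CPM (SD, n = 15) in pericytes, and neighbors in the order overlapped within 1 SD. The pericyte level rested on 57 UMIs, and endothelial cells were highest when UMIs per nucleus were taken. GABAergic nuclei, at 69.7 ± 11.4 CPM (SD, n = 16), stood above glutamatergic nuclei by more than both SDs. The unnamed nuclei were at 111 ± 12.5 CPM and held 37.5% of its UMIs, although they held 21.1% of all UMIs. The closest gene was the imprinted Snrpn, at a correlation of 0.949.

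The question of the design was whether genotype, alcohol or both shifted these levels. Counts were summed per mouse and class and tested with edgeR's quasi-likelihood test over all genes of a class, with a call at a Benjamini-Hochberg adjusted p of at most 0.05. Of the 90 pairs of RNA and broad class, 74 passed the filter on low counts. In alcohol-exposed 3xTg-AD mice versus WT controls, 1 of the 74 pairs was called (background 1.63%, the share of all gene and class pairs that were called), and 13 had an unadjusted p under 0.05, of which 10 were lower. Alcohol-exposed 3xTg-AD mice gave 1 call versus 3xTg-AD controls (background 0.216%) and 1 versus alcohol-exposed WT mice (background 0.496%), with 11 and 7 pairs at an unadjusted p under 0.05. For 3xTg-AD controls versus WT controls, edgeR gave 0 calls (background 0.24%) with 11 pairs at an unadjusted p under 0.05, and the alternative DESeq2 gave 0. For alcohol-exposed WT mice versus WT controls, edgeR gave 0 calls (background 0.0174%) with 6 such pairs, and DESeq2 gave 0. The interaction of genotype and alcohol gave 0 calls (background 0.00174%) with 7 such pairs, and DESeq2 gave 0. The 3 calls were Rmst in glutamatergic nuclei versus WT controls, and Neat1 in microglia versus 3xTg-AD controls and versus alcohol-exposed WT mice.

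In the 12 neuron types, 103 of 120 pairs passed the filter. Rmst in L5 IT neurons was the only call, in alcohol-exposed 3xTg-AD mice versus WT controls (background 1.15%), where 15 pairs had an unadjusted p under 0.05. With 0 calls by edgeR, the backgrounds were 0.183% within 3xTg-AD mice (13 pairs at an unadjusted p under 0.05), 0.395% versus alcohol-exposed WT mice (5 pairs), 0.184% for 3xTg-AD controls (4 pairs) and 0.0335% for alcohol-exposed WT mice (6 pairs), each versus WT controls, and 0% for the interaction (1 pair). In these 5 contrasts DESeq2 called Miat in L5 IT and L5 ET neurons within 3xTg-AD mice and gave 0 in the other 4. In the sums over all nuclei, each of the 10 RNAs was tested, and Rmst was called in alcohol-exposed 3xTg-AD mice versus WT controls (background 4.06%) and versus alcohol-exposed WT mice (background 0.942%), where 1.56% and 0.459% of genes were called higher. The other 4 contrasts gave 0 calls by edgeR, at backgrounds of 0.483% within 3xTg-AD mice, 0.435% for 3xTg-AD controls and 0.0179% for alcohol-exposed WT mice versus WT controls, and 0% for the interaction, with 1, 1, 0 and 0 RNAs at an unadjusted p under 0.05. DESeq2 called Miat within 3xTg-AD mice and gave 0 in the other 3 of these contrasts.

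Rmst was higher in alcohol-exposed 3xTg-AD mice than in WT controls, and no call separated them from 3xTg-AD controls. Versus 3xTg-AD controls the log2 fold change was 0.09 in glutamatergic nuclei (edgeR adjusted p = 0.853). It was 0.25 in L5 IT neurons (adjusted p = 0.578) and 0.17 over all nuclei (adjusted p = 0.644). Levels of single mice are given as CPM after scaling by edgeR's TMM factors. In glutamatergic nuclei, WT controls had 76.1, 86.9, 83.1 and 57.6 CPM and alcohol-exposed WT mice had 70.9, 92.8, 90.9 and 97.7 CPM. The 3xTg-AD controls had 100.5, 82.8, 118 and 109 CPM and the alcohol-exposed 3xTg-AD mice 95.7, 98.5, 121 and 122 CPM. All 4 alcohol-exposed 3xTg-AD mice were above the 4 WT controls, and they overlapped with the 3xTg-AD controls and with alcohol-exposed WT mice. The log2 fold change versus WT controls was 0.53 (SE 0.14, edgeR adjusted p = 0.0452), where 1.17% of all genes were called higher. This call stood close to the threshold. It was lost in 11 of 16 fits that left out 1 mouse (7, 17, 18, 21, 26, 28, 36, 4, 31, 33 or 34), with adjusted p of 0.0507 to 0.125 among them and log2 fold changes of 0.42 to 0.60 over all 16, and without WT controls 26 and 27 and 3xTg-AD control 12 the adjusted p was 0.0553.

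In L5 IT neurons, the type richest in Rmst among neurons, WT controls had 213, 227, 194 and 240 CPM and alcohol-exposed 3xTg-AD mice 245, 297, 376 and 382 CPM. These groups did not overlap, although the highest WT control and the lowest alcohol-exposed 3xTg-AD mouse were close. Alcohol-exposed WT mice ranged from 212 to 272 CPM and 3xTg-AD controls from 233 to 303 CPM. The log2 fold change versus WT controls was 0.57 (SE 0.14, edgeR adjusted p = 0.0283), where 0.649% of genes were called higher. The adjusted p passed 0.05 without WT control 26, WT control 28 or alcohol-exposed 3xTg-AD mouse 33 or 34, to at most 0.118, and was 0.0571 without the 3 mice high in Gm42418 and 0.0548 with Gm42418 as a covariate. L5 IT neurons made up 9.06% to 21.1% of the glutamatergic nuclei in WT controls and 14.8% to 16.8% in alcohol-exposed 3xTg-AD mice, ranges that overlap. The part of the makeup of the glutamatergic class in the class-wide difference was not tested. Nor was the part of the makeup of L5 IT neurons, whose clusters differed in Rmst.

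Both L5 IT clusters held more Rmst in the alcohol-exposed 3xTg-AD group, at 518 against 354 CPM in WT controls in the richer and 152 against 96.1 CPM in the poorer cluster, given as pooled values without a test. In 3xTg-AD controls these clusters were at 476 and 137 CPM and in alcohol-exposed WT mice at 421 and 105 CPM. In astrocytes the log2 fold change versus WT controls was 0.34 (edgeR adjusted p = 0.454), which was not a call. Without the filter, edgeR called Rmst in astrocytes versus alcohol-exposed WT mice (0.59, adjusted p = 0.0124) and in L6 CT neurons versus WT controls (1.53, adjusted p = 0.000895) and versus alcohol-exposed WT mice (1.40, adjusted p = 0.00216). In GABAergic nuclei, where Rmst was at 13.9 CPM, it was called without the 3 mice high in Gm42418, by 2.09 (edgeR adjusted p = 0.014) versus WT controls and 1.73 (adjusted p = 0.00624) versus alcohol-exposed WT mice. Only WT controls 28 and 36 remained in that fit. With all 16 mice these log2 fold changes were 0.32 (edgeR adjusted p = 0.902) and 1.72 (adjusted p = 0.663). In the sums over all nuclei, WT controls had 58.4, 81.1, 74.5 and 61.6 CPM of Rmst and alcohol-exposed WT mice 59.5, 76.6, 73.4 and 70.8 CPM. The 3xTg-AD controls had 99.0, 80.6, 97.2 and 91.7 CPM and alcohol-exposed 3xTg-AD mice 96.1, 96.6, 101 and 121 CPM. Alcohol-exposed 3xTg-AD mice were above every WT mouse of either treatment and overlapped with 3xTg-AD controls. The log2 fold change was 0.59 (SE 0.12, edgeR adjusted p = 0.0106) versus WT controls, and the call stayed in all 16 fits without 1 mouse and in all 7 alternatives. In such sums, more or fewer cells of a type and more or less RNA per cell cannot be told apart. Astrocytes, the class richest in Rmst, numbered 2401 nuclei in alcohol-exposed 3xTg-AD mice, 1973 in 3xTg-AD controls, 1819 in alcohol-exposed WT mice and 1536 in WT controls. The summed level of 9 astrocyte markers over all nuclei was 682 to 999 CPM in alcohol-exposed 3xTg-AD mice, 462 to 694 CPM in 3xTg-AD controls, 586 to 781 CPM in alcohol-exposed WT mice and 564.1 to 768.1 CPM in WT controls. None of the 9 was at 0, and their part in the result was not tested. Versus alcohol-exposed WT mice the log2 fold change of Rmst was 0.56 (SE 0.12, edgeR adjusted p = 0.0262), and that call was lost without mouse 6, 18, 31, 33 or 34, with adjusted p of at most 0.104, and in strict nuclei (log2 fold change 0.46, adjusted p = 0.0681), those with at least 1000 UMIs and at most 1% mitochondrial UMIs. For 3xTg-AD controls versus WT controls the log2 fold change of Rmst was 0.42 over all nuclei and 0.44 in glutamatergic nuclei, and neither was called.

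**Figure D3:**
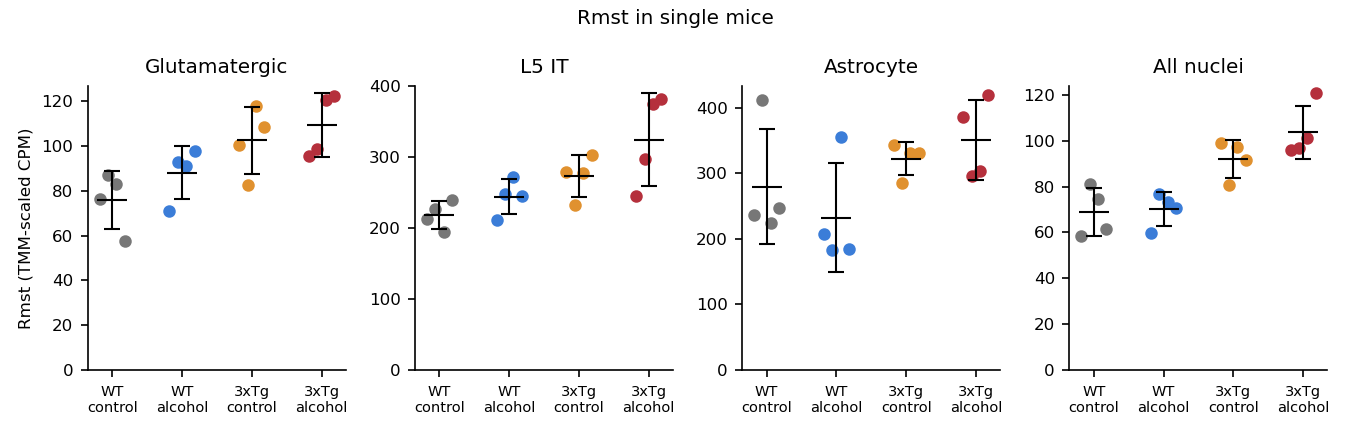
Rmst level (TMM-scaled CPM) per mouse in glutamatergic nuclei, L5 IT neurons, astrocytes and all nuclei for the 4 groups. Dots are mice and lines with bars are the mean ± SD of 4 mice. In L5 IT neurons the 4 alcohol-exposed 3xTg-AD mice lay from 245 to 382 CPM, above the WT controls at 194 to 240 CPM.

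Neat1 differed between groups in microglia, a class in which its level was low. WT controls had 119, 172, 116 and 112 CPM, alcohol-exposed WT mice 113, 97.1, 139 and 104 CPM, and 3xTg-AD controls 120, 90.3, 116 and 112 CPM. Alcohol-exposed 3xTg-AD mice had 172, 186, 179 and 334 CPM. Every alcohol-exposed 3xTg-AD mouse was above all mice of the other groups, by a margin of less than 1 CPM over WT control 27, and mouse 34 was far above the other 3. The log2 fold change was 0.99 (SE 0.22, edgeR adjusted p = 0.0284) versus 3xTg-AD controls, where 0.0822% of genes were called higher, and 0.92 (SE 0.22, edgeR adjusted p = 0.0249) versus alcohol-exposed WT mice, where 0.625% were. Versus WT controls it was 0.79 (edgeR adjusted p = 0.0704), and the interaction of genotype and alcohol was 1.12 (SE 0.35, edgeR adjusted p = 0.974), neither of them a call. Without the filter the difference versus WT controls was called (0.84, edgeR adjusted p = 0.0407).

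Both microglial calls rested on few mice and few UMIs. Without mouse 34 the log2 fold changes were 0.71 (edgeR adjusted p = 0.46) versus 3xTg-AD controls and 0.65 (adjusted p = 0.344) versus alcohol-exposed WT mice. The first was also lost without 3xTg-AD control 13 (adjusted p = 0.368) or 21 (0.151), and the second without mouse 6 (0.0966), 7 (0.0695) or 18 (0.103) and with DESeq2 (0.0911). A Neat1 UMI was found in 12.1% to 20.4% of the microglia of alcohol-exposed 3xTg-AD mice and in 7.0% to 12.9% of those of other mice, at median depths of 706 to 920 UMIs. In GABAergic nuclei, which were deeper, that share was 1.02%. The summed level of 9 oligodendrocyte markers was 1089 CPM in the microglia of mouse 34, 329 to 573 CPM in the other 3 alcohol-exposed 3xTg-AD mice and 275 to 800 CPM in the other groups. None of the 9 markers was at 0 in the microglial sums, and their part in the result was not tested. The summed level of 9 astrocyte markers in the microglial sums was 464 to 740 CPM in alcohol-exposed 3xTg-AD mice and 294 to 554 CPM in 3xTg-AD controls, against 952 to 1639 CPM in alcohol-exposed WT mice and 830 to 1276 CPM in WT controls, and its part was not tested either. The 6 glutamatergic markers summed to 2556 to 2876 CPM in the microglia of alcohol-exposed 3xTg-AD mice. They reached 2507 to 3208 CPM in 3xTg-AD controls, 2770 to 3185 CPM in alcohol-exposed WT mice and 2393 to 4051 CPM in WT controls. Their part was not tested. Of the oligodendrocyte messages, Mbp had a log2 fold change of 0.33 (adjusted p = 0.872) and Mobp of -0.41 (adjusted p = 0.893) versus 3xTg-AD controls. The summed level of 9 microglial markers was 2937 to 3791 CPM in alcohol-exposed 3xTg-AD mice and 2087 to 3065 CPM in 3xTg-AD controls. It was 3271 to 4134 CPM in alcohol-exposed WT mice, and its part was not tested. Versus 3xTg-AD controls all 9 had log2 fold changes above 0, from 0.03 for Csf1r (adjusted p = 0.975) to 1.78 for Mrc1 (adjusted p = 0.379). C1qa at 0.87 (adjusted p = 0.0284) and Ctss at 0.93 (adjusted p = 0.0284) were called higher versus 3xTg-AD controls, while 0 were called versus alcohol-exposed WT mice. There 5 of the 9 had log2 fold changes above 0, up to 0.55 for Mrc1 (adjusted p = 0.783), and 4 below 0, down to -0.61 for P2ry12 (adjusted p = 0.105).

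In oligodendrocytes, VLMCs and astrocytes, edgeR with the filter called no difference in Neat1. In astrocytes the log2 fold change of alcohol-exposed 3xTg-AD mice versus WT controls was -0.59 (edgeR adjusted p = 0.0614), with WT control 26 the highest mouse at 639 CPM. Without the filter this difference was called (-0.57, edgeR adjusted p = 0.0116), and Neat1 was called higher in oligodendrocytes versus alcohol-exposed WT mice (0.73, adjusted p = 0.0481). None of the 14 genes for paraspeckle proteins was called in a broad class, in 96 tests per contrast. The backgrounds over all genes ran from 0.00174% for the interaction to 1.63% for alcohol-exposed 3xTg-AD mice versus WT controls. In microglia versus 3xTg-AD controls, where 0.0987% of genes were called, the median log2 fold change was -0.05 over the 13 tested, beside 0.00 over all genes tested. The genes for 18 speckle and splicing proteins and the neighbors of Malat1 and Neat1 on chromosome 19 gave no call either, in 140 and 27 tests per contrast beside the same backgrounds.

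**Figure D4:**
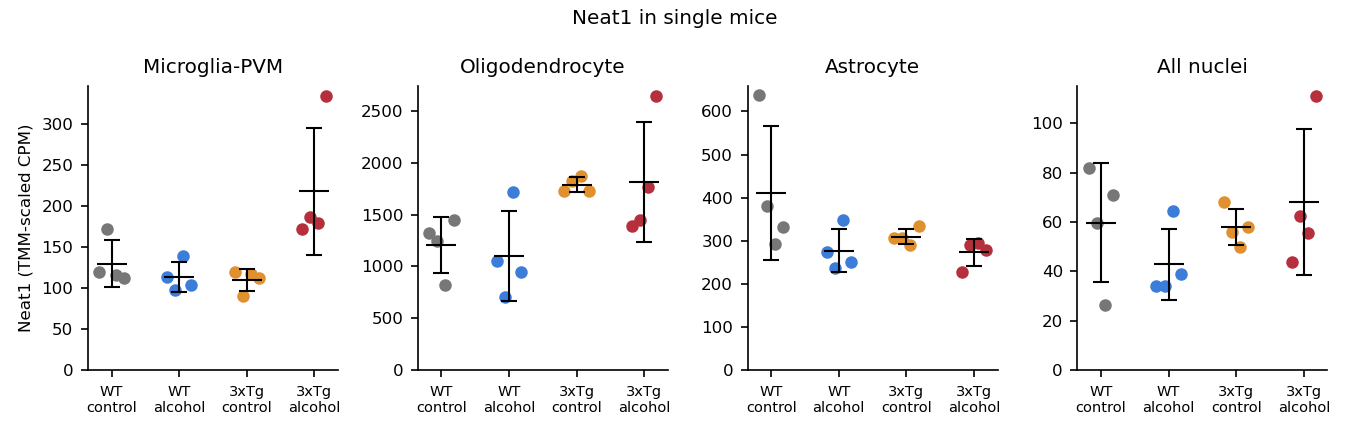
Neat1 level (TMM-scaled CPM) per mouse in microglia, oligodendrocytes, astrocytes and all nuclei for the 4 groups. Dots are mice and lines with bars are the mean ± SD of 4 mice. In microglia the alcohol-exposed 3xTg-AD mice lay at 172 to 186 CPM, apart from mouse 34 at 334 CPM.

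Miat differed between the 3xTg-AD groups without a call by edgeR. In glutamatergic nuclei, 3xTg-AD controls had 748, 765, 804 and 831 CPM and alcohol-exposed 3xTg-AD mice 556, 654, 558 and 630 CPM. WT controls ranged from 629 to 753 CPM and alcohol-exposed WT mice from 623 to 691 CPM. The 3xTg-AD groups did not overlap, and the WT groups lay between and across them. How many of all genes separate these groups in the same way was not counted. The log2 fold change within 3xTg-AD mice was -0.39 (SE 0.093, edgeR adjusted p = 0.0596), and over all nuclei it was -0.44 (SE 0.12, adjusted p = 0.118). The interaction of genotype and alcohol in glutamatergic nuclei was -0.34 (SE 0.13, edgeR adjusted p = 0.989). DESeq2 called the glutamatergic difference (adjusted p = 0.000195) and that over all nuclei (adjusted p = 0.0182), and the glutamatergic one was also called by edgeR without the 3 mice high in Gm42418 or with Gm42418 as a covariate. The covariate also gave a call over all nuclei (-0.56, edgeR adjusted p = 0.0128) and in L2/3 IT, L5 IT and Sst neurons. In microglia DESeq2 also called Miat within 3xTg-AD mice, at -0.96 (adjusted p = 0.0421), as did edgeR without the filter (-0.95, adjusted p = 0.0115), whereas edgeR with the filter did not. Expression of Miat in glia was not inferred above. In the same class and comparison, Meg3 was at -0.88 by edgeR without the filter and Mirg at -0.90 (edgeR adjusted p = 0.449). The part of neuronal RNA in these sums was not tested. Celf3, which encodes an RNA-binding protein known to bind Miat, was called higher in the same nuclei in alcohol-exposed 3xTg-AD mice, by 0.64 (SE 0.13, adjusted p = 0.0122) versus WT controls and 0.64 (adjusted p = 0.0235) versus alcohol-exposed WT mice. Within 3xTg-AD mice, where Miat differed, 0 of 81 tests of Celf3 and the other partners were called in the broad classes (background 0.216%). Celf3 was the only gene called among the 14 for RNA-binding and chromatin partners in the broad classes. The backgrounds were 3.37% and 0.845% of the genes of glutamatergic nuclei in the 2 comparisons with WT mice. In the neuron types 4 and 7 of 135 tests of these genes were called, each of them Celf3 and higher, beside backgrounds of 1.15% and 0.395%.

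**Figure D5:**
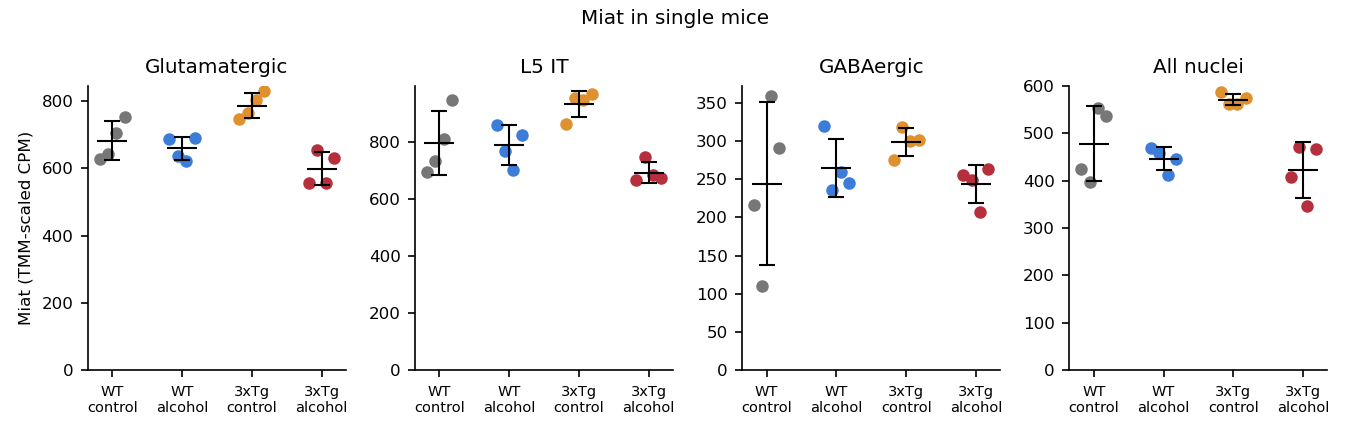
Miat level (TMM-scaled CPM) per mouse in glutamatergic nuclei, L5 IT neurons, GABAergic nuclei and all nuclei for the 4 groups. Dots are mice and lines with bars are the mean ± SD of 4 mice. In glutamatergic nuclei the 3xTg-AD controls lay at 748 to 831 CPM and the alcohol-exposed 3xTg-AD mice at 556 to 654 CPM.

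The maternally expressed RNAs of the Dlk1-Dio3 domain gave no call in the edgeR test described above, and the calls of alternative settings are named beside the values. In glutamatergic nuclei Meg3 had 20259, 23317, 21525 and 24714 CPM in WT controls and 20113, 20541, 18189 and 21977 CPM in alcohol-exposed 3xTg-AD mice. These ranges overlapped, and over all nuclei the log2 fold change was -0.13 (SE 0.15, edgeR adjusted p = 0.667). Rian and Mirg differed by -0.08 (SE 0.14) and -0.16 (SE 0.14) in the same comparison, also without a call. In single classes of that comparison, Meg3 in L2/3 IT neurons was at -0.23 (edgeR adjusted p = 0.271) and Mirg in L6b neurons at -0.41 (adjusted p = 0.651). DESeq2 called the former at -0.22 (adjusted p = 0.032). Without the filter, edgeR called Meg3 lower in microglia within 3xTg-AD mice (-0.88, adjusted p = 0.00113) and in pericytes of 3xTg-AD controls versus WT controls (-1.66, adjusted p = 0.000597). Expression of Meg3 in these 2 classes was not inferred above. Alcohol-exposed 3xTg-AD mouse 33 was the lowest of its group for Meg3, Rian and Mirg in glutamatergic nuclei, GABAergic nuclei and all nuclei. In GABAergic nuclei, WT control 27 was the lowest of the 16 mice for these 3 RNAs and for Snhg11, with 13616 CPM of Meg3 and 10232 CPM of Snhg11. The largest GABAergic cluster of WT controls was an unnamed one led by Adamts19 and Cpa6, while in the other 3 groups it was that of Vip interneurons. Of the 6 other genes of the domain, Begain was called lower in glutamatergic nuclei of alcohol-exposed 3xTg-AD mice versus WT controls, at -0.37 on the log2 scale (SE 0.092, adjusted p = 0.0336), where 3.37% of all genes were called. The median of the 6 was -0.26, beside 0.00 over all genes of the class. Over all nuclei 2 of the 6 were called lower, beside the background of 4.06%. These were Rtl1, a paternally expressed gene of the domain, at -0.64 (SE 0.15, adjusted p = 0.0284), and Begain at -0.35 (adjusted p = 0.0476).

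Snhg11 had 11547, 13228, 13087 and 15132 CPM in glutamatergic nuclei of WT controls and 12100, 11157, 11342 and 13447 CPM in those of alcohol-exposed 3xTg-AD mice, which overlapped. Its log2 fold change over all nuclei was -0.17 (SE 0.14, edgeR adjusted p = 0.537). With Gm42418 as a covariate, edgeR called Snhg11 lower in oligodendrocytes versus WT controls, at -0.91 (adjusted p = 0.0345) in alcohol-exposed 3xTg-AD mice and -1.10 (adjusted p = 0.0113) in alcohol-exposed WT mice. In glutamatergic nuclei Peg13 was at 55.0, 43.9, 44.4 and 48.9 CPM in WT controls and 40.5, 35.5, 37.8 and 40.7 CPM in alcohol-exposed 3xTg-AD mice. The log2 fold change was -0.32 (SE 0.11, edgeR adjusted p = 0.125), which was not called. Trappc9 with the other 3 genes of the domain gave no call, in 19 tests per contrast over the broad classes beside backgrounds of 0.00174% to 1.63%.

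Malat1 spread widely between mice of the same group. In glutamatergic nuclei WT controls had 382739, 287807, 181987 and 153842 CPM, and the highest were mice 26 and 27, which also had the most Gm42418. Alcohol-exposed WT mice ranged from 172178 to 266126 CPM, 3xTg-AD controls from 181970 to 277492 CPM, with mouse 12 highest, and alcohol-exposed 3xTg-AD mice from 211766 to 283243 CPM. WT controls thus spanned the range of the 3 other groups. Over all nuclei, the log2 fold change of alcohol-exposed 3xTg-AD mice versus WT controls was 0.00 (SE 0.25, edgeR adjusted p = 0.998). This value changed with the treatment of Gm42418. With Gm42418 as a covariate, edgeR called Malat1 higher over all nuclei, by 0.75 (adjusted p = 0.0366) versus WT controls and 0.60 (adjusted p = 0.0459) versus 3xTg-AD controls. It did so in glutamatergic nuclei too, by 0.78 (adjusted p = 0.0235) and 0.66 (adjusted p = 0.0165), and in 8 neuron types in both comparisons. Over all nuclei, Gm42418 lay at 2059 to 3232 CPM in alcohol-exposed 3xTg-AD mice. Every WT control (3807 CPM or more) and 3xTg-AD control (3477 CPM or more) was higher. The covariate thus differed between the compared groups, and these fits cannot separate it from group. Without the 3 mice high in Gm42418, Malat1 was called higher versus WT controls in L5 IT neurons (0.70, edgeR adjusted p = 0.0335), L6 IT neurons (0.67, adjusted p = 0.0219) and L5 ET neurons (0.58, adjusted p = 0.0427). These fits kept only WT controls 28 and 36. They left out 26 and 27, the WT controls highest in Malat1, which by itself raises the difference.

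Kcnq1ot1 also had single high mice in 3 groups. Over all nuclei, 3xTg-AD control 12 had 1580 CPM while the other 3 had 838 to 877 CPM, alcohol-exposed 3xTg-AD mice 31 and 34 had 1593 and 1296 CPM against 847 and 980 CPM in the other 2, and WT control 27 had 1338 CPM. The groups overlapped, and the log2 fold change of alcohol-exposed 3xTg-AD mice versus WT controls was 0.13 (SE 0.21, edgeR adjusted p = 0.784). Within 3xTg-AD mice Kcnq1ot1 was called higher once Gm42418 was a covariate, by 0.55 (edgeR adjusted p = 0.0422) in glutamatergic nuclei and also in L6 CT, L5 IT and L2/3 IT neurons. Without the 3 mice high in Gm42418 it was called in L5 IT neurons, at 0.50 (edgeR adjusted p = 0.0364), and L6 CT neurons, at 0.56 (adjusted p = 0.0242). Without the filter it was called higher in oligodendrocytes versus alcohol-exposed WT mice (0.83, edgeR adjusted p = 0.0284). In pericytes, the class with the fewest nuclei, Kcnq1ot1 and Rian had log2 fold changes of -2.26 and -1.53 in 3xTg-AD controls versus WT controls, both with an edgeR adjusted p of 0.0515 and not called. Both were called with the 10 RNAs left out of the library total (edgeR adjusted p = 0.042 each). With the Gm42418 covariate they were called at -2.82 (edgeR adjusted p = 0.00162) and -1.90 (adjusted p = 0.00518), as was the interaction for Kcnq1ot1 at 3.17 (adjusted p = 0.00633). None of the 6 tested genes of the Kcnq1 domain was called, in 25 tests per contrast over the broad classes beside backgrounds of 0.00174% to 1.63%.

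Other long noncoding RNAs were counted for comparison. In glutamatergic nuclei of alcohol-exposed 3xTg-AD mice versus WT controls, 28 of a list of 31 were tested, 2 were called higher and 1 lower (background 3.37% of all genes), with a median log2 fold change of 0.11 beside 0.00 over all genes. Gas5, a host gene of small nucleolar RNAs, was higher by 0.98 (SE 0.22, adjusted p = 0.0206). Mir99ahg, the host of a microRNA cluster, was higher by 0.48 (SE 0.11, adjusted p = 0.0272), and the X-linked Firre was lower at -0.45 (SE 0.12, adjusted p = 0.0463). Of the RNAs described here, Rmst with 0.53 lay between these values. Of 4 tested genes associated with ribosomal RNA, AY036118 was called lower in these nuclei, at -0.81 (SE 0.15, adjusted p = 0.00697). Over the broad classes 5 of the 35 tests of these genes were called in this comparison, each of them AY036118 and lower, beside the background of 1.63%. The part of ribosomal sequence in the differences of the long noncoding RNAs was not tested beyond the covariate and the fits without the 3 mice.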

How the data were processed

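Single-nucleus RNA-seq libraries (10x Genomics 3′ chemistry) of 16 mice were used. The authors aligned reads to mm10 with Cell Ranger 6.1.1, which runs STAR, and deposited raw UMI counts per gene and nucleus without normalization. Their annotation release, use of intronic and strand information, and limits on nuclei were not given in the sources used here. The members and gene lists were chosen with earlier results of these data known. All 10 members are named, likeness names the 3 genes with the highest correlation among genes of at least 10 CPM, and genes of the lists are named where called, at most 4 per list.

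Nuclei were clustered by the Leiden method (igraph 0.11.9) on 2000 variable genes without the members, 30 principal components, 20 neighbors and a resolution of 1.5. Glial and vascular classes and neuron types were clusters of at least 50 nuclei with at least 3 of their markers raised 1.5-fold. The glutamatergic and GABAergic classes were instead set from Slc17a7 and Gad1 relative to the other nuclei. A glutamatergic cluster could have slightly less Slc17a7 than these. Within both classes, subclusters led by markers of other classes or high in the opposite gene became unnamed. Names can thus differ from those of the study. No doublet caller was run and no nuclei were removed. To compare shares of nuclei, each was thinned to 500 UMIs, which left out 0 of 114512 nuclei, as none had fewer.

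Counts were summed per mouse and class for classes with at least 10 nuclei in a mouse and 3 such mice per group. WT control 36 was left out for VLMCs, WT control 28 for pericytes and 1 mouse with 9 nuclei for L6b. All 16 mice entered 1 fit of edgeR 4.0.16 (R 4.3.3, TMM, filterByExpr, robust quasi-likelihood, a mean per group) with 6 contrasts, with Benjamini-Hochberg adjustment over all genes tested in a class and contrast. CPM are relative to the class total, and Malat1 is part of that total. Differences are on the log2 scale and levels are CPM. Where labels name mice, the p-values measure the spread between mice.

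On simulated data with 200 changed genes, the test recovered 71.5% of 2-fold changes in the glutamatergic class (15274 genes) and 45.5% in microglia (6080 genes), and 22.5% and 1.5% of 1.5-fold changes. The alternatives were DESeq2 1.42.0, its size factors (RLE) in edgeR, no filter, Gm42418 as a covariate, fits without the 3 mice highest in Gm42418, members taken out of the total, nuclei with at least 1000 UMIs and at most 1% mitochondrial UMIs, classes set per nucleus from at least 2 markers with a lead of 2, and each mouse left out.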

Additional observations from a re-analysis of the deposited data

Results flagged for a closer look

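Of 52 groups of 4 mice examined for a mouse far from the others (Dixon's ratio above its 95% critical value), 5 met the limit, where chance gives about 1 in 20 groups. In microglia, Neat1 was at 334 CPM in alcohol-exposed 3xTg-AD mouse 34, while the other 3 of that group were at 172 to 186 CPM. In the same class WT control 27 was at 172 CPM, with the other WT controls at 112 to 119 CPM. Over all nuclei, Neat1 was at 64.3 CPM in alcohol-exposed WT mouse 17 and at 34.2 to 38.8 CPM in the other 3. Kcnq1ot1 over all nuclei was at 1580 CPM in 3xTg-AD control 12, against 838 to 877 CPM in its group. Mirg over all nuclei was at 132 CPM in alcohol-exposed 3xTg-AD mouse 33, and the other 3 alcohol-exposed 3xTg-AD mice were at 190 to 201 CPM. Of 187 tests of the interaction of genotype and alcohol on the 10 RNAs, edgeR called 0.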

How the results depend on the processing

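No paired analysis was possible because the numbers in the labels are mouse numbers that no groups share. The 6 called differences of Rmst and Neat1 kept their direction in every alternative that gave a value. The number of calls over the broad classes in alcohol-exposed 3xTg-AD mice versus WT controls was 1, and it was 3 without the filter, 3 with the Gm42418 covariate and 0 to 2 with 1 mouse left out. For 3xTg-AD controls versus WT controls it was 0, and 1 without the filter, 2 with the covariate, 2 with the members out of the total and 0 to 2 with 1 mouse left out. For alcohol-exposed WT mice versus WT controls it was 0, and 1 with the covariate. Within 3xTg-AD mice it was 1, and 2 with DESeq2, 3 without the filter, 2 without the 3 mice high in Gm42418, 4 with the covariate, 0 in strict nuclei, 0 in marker classes and 0 to 2 with 1 mouse left out. Versus alcohol-exposed WT mice it was 1, and 0 with DESeq2, 4 without the filter, 2 without the 3 mice, 0 in strict nuclei, 0 in marker classes and 0 to 3 with 1 mouse left out. The interaction gave 0, and 1 with the covariate and 0 to 1 with 1 mouse left out. Over all nuclei, the 2 calls became 3 with DESeq2, 5 with the covariate, 1 in strict nuclei and 1 to 2 with 1 mouse left out. In the neuron types the 1 call became 4 with DESeq2, 3 without the filter, 7 without the 3 mice, 24 with the covariate and 0 to 1 with 1 mouse left out. Alcohol-exposed 3xTg-AD mice had less Gm42418 than every control of either genotype, so the covariate cannot be separated from group in those comparisons. Without the 3 mice, the WT controls were only mice 28 and 36. The share of all genes called in each of these alternatives is given neither here nor above. The counts therefore cannot be read as a result about the 10 RNAs. The cause of these shifts was not tested. Neat1 in microglia did not pass the filter in strict nuclei or marker classes, and DESeq2 gave it no adjusted p versus 3xTg-AD controls (log2 fold change 1.0, unadjusted p = 7.11e-05). The class with the highest level was the same for all 10 RNAs with each mouse left out, and for 5 when UMIs per nucleus were taken, 7 in strict nuclei and 9 in marker classes. Peg13 was highest in endothelial cells by UMIs per nucleus, in strict nuclei and in marker classes. Marker classes could not be set for all nuclei or for neuron types. The sparse RNAs limit the depth: Neat1, Peg13 and Rmst each failed the filter in some classes, and a 1.5-fold change in microglia would mostly not be called. Intervals beyond the SD and SE over 4 mice per group were not computed. The share of all genes whose groups of mice do not overlap was not computed either.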
